A study of Homo sapiens with 5 samples.

Results

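The genes described here encode the machinery that copies DNA in S phase. They comprise 46 named genes for the replicative helicase, the proteins that recognise and license origins, the clamp and its loader, the replicative polymerases, the single-strand binding protein and the enzymes that supply deoxynucleotides, out of 20045 genes with a named probe on the arrays. Members were taken by gene symbol, with updated symbols matched through Entrez identifiers, and together had 71 probes. The samples were cultures of H9, a line of human embryonic stem cells, kept in E6 medium that was renewed daily. They were harvested undifferentiated (week 0) or after 2, 4, 6 or 8 weeks on the way to corneal-epithelium-like cells. Each week was measured on 1 single-colour Illumina bead array, and the labels call every sample a non-replicate, so no difference below has a replicate check and none carries a test.

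Before S phase, the origin recognition complex together with CDC6 and CDT1 loads the MCM2 to MCM7 ring onto DNA. Kinases then convert it, with CDC45 and the GINS proteins, into the active helicase, after which polymerase α-primase lays primers and polymerases δ and ε, held by the PCNA clamp, extend them. Transcription of many of these genes is known to be driven by E2F factors at the start of S phase and held down by the RB family of pocket proteins when cells leave the cycle. Human embryonic stem cells are known for a short G1 phase and a large share of cells in S phase.

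By week 8 most of the machinery was lower than in undifferentiated H9 cells. A gene was called lower or higher where the normalized intensity changed 2-fold or more, which is 1 on the log2 scale, with the brighter array above background (detection p-value under 0.01). Of the 46 members, 45 were above background at week 0 and 44 on all 5 arrays, while GINS4, which encodes a GINS subunit, was above background on none. At week 8, 31 of the 45 measured members were lower than at week 0, none was higher and 14 were not called, against 15.4% of 12333 genes called lower and 16.8% called higher over the whole array. The median log2 difference of the members was -1.84, and that of all measured genes was -0.05. Members first called lower than week 0 at week 2 numbered 8, with a further 6 at week 4, 15 at week 6 and 2 at week 8. First calls were not counted over all genes. In a mixed culture, fewer dividing cells and less of each RNA per cell cannot be told apart.

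**Figure D1:**
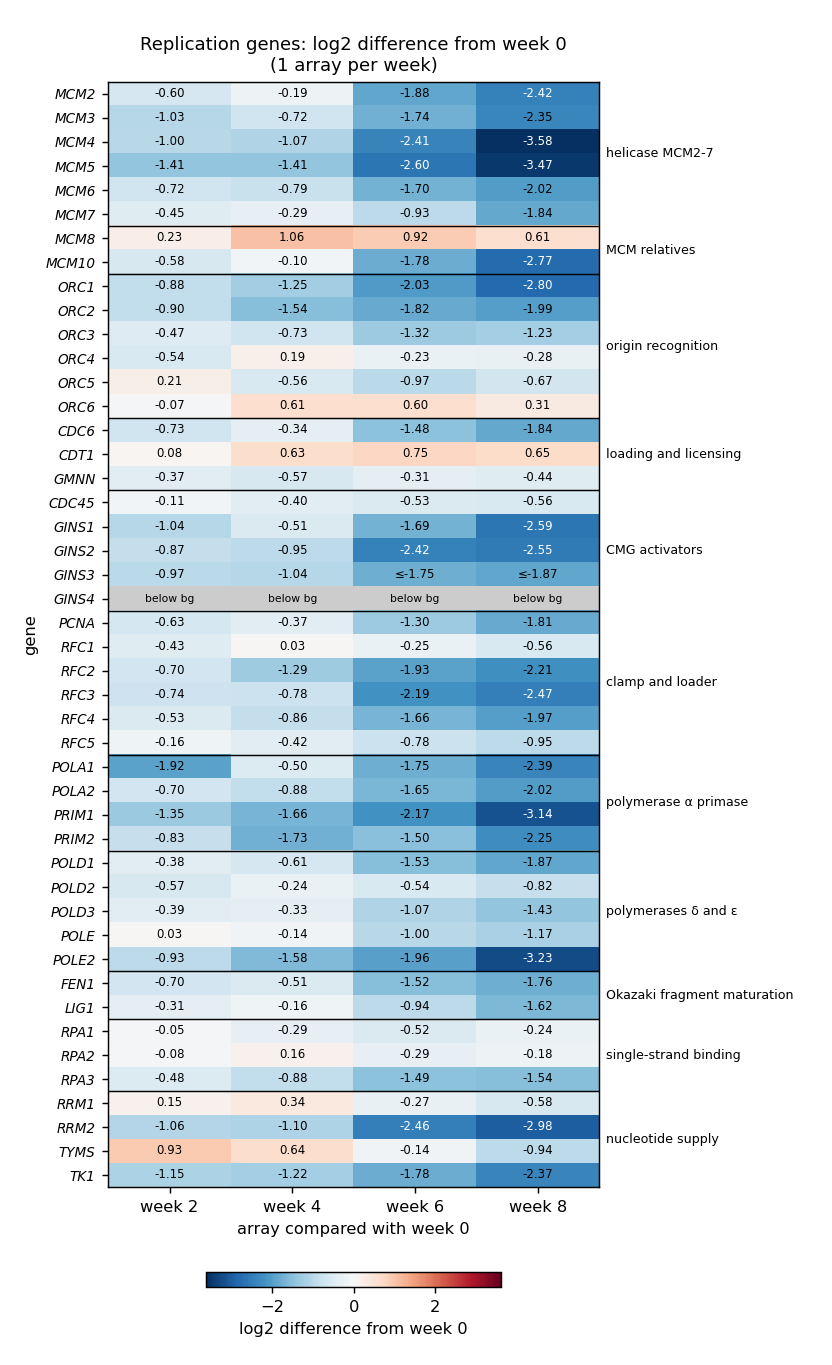
Log2 difference from week 0 (colour and number) for each replication gene (rows, grouped by role) on the arrays of weeks 2, 4, 6 and 8 (columns), 1 array per week. A ≤ sign marks a bound because the later array was below background, and GINS4 was below background throughout. The largest decreases at week 8 were those of MCM4 (-3.58), MCM5 (-3.47), POLE2 (-3.23) and PRIM1 (-3.14), and CDT1 (0.65), MCM8 (0.61) and ORC6 (0.31) were the 3 members with a positive difference on their brightest probe.

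The starts of these genes were read for the E2F element, because many members moved together. RefSeq promoter windows of 300 bases on GRCh38.p14, from 250 bases before to 50 bases after the gene's start, were matched for 40 of the 46 members; MCM4, MCM5, POLD3, RPA2, RPA3 and GINS4 were not matched. The E2F forms searched on both strands were TTTCCCGC, TTTCGCGC, TTTGCCGC and TTTGGCGC, and forms on opposite strands can overlap. At least 1 form was present in 19 of the 40 windows (47.5%), against 3.33% of 27305 windows of all genes. Among the 27 matched members called lower at week 8 it was present in 16 (59.3%), and among the 13 not called in 3 (23.1%). Only exact forms were counted, so close spellings, such as TTTGGCGG in CDC45 and ATTGGCGC in ORC1, count as none. The difference between these small sets was not tested. CCAAT, the box bound by NF-Y, was in 57.5% of the members' windows and 35.7% of all windows. TTTGAA, a core form of the CHR element of late cell-cycle genes, was in 1 of the 40 (2.5%), that of RRM1, against 15.4% of all windows. The windows of 24 mitosis genes held the E2F form in 12.5%, CCAAT in 79.2% and TTTGAA in 70.8%. These matches describe letters in a window and show no binding.

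**Figure D2:**
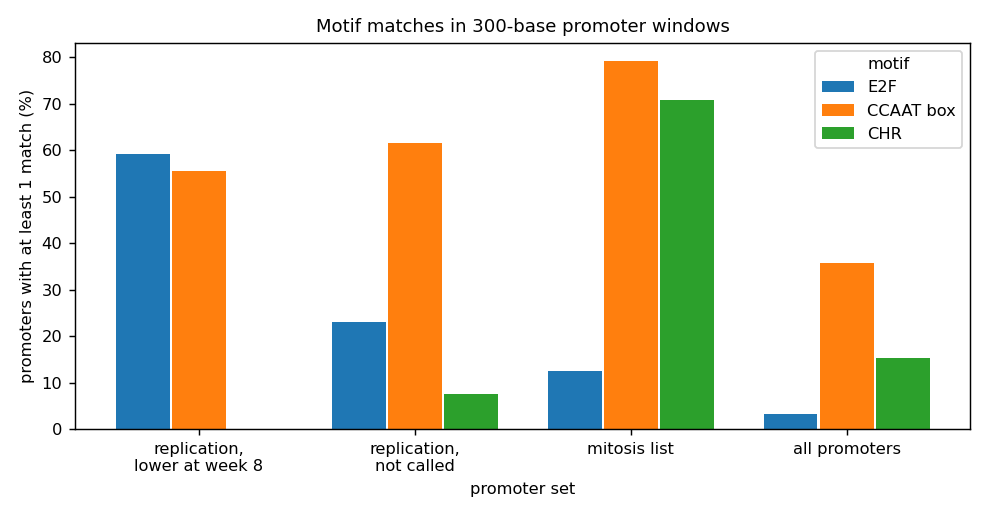
Share of 300-base promoter windows (vertical axis, percent) with at least 1 match to the E2F forms, CCAAT or the CHR form TTTGAA, for replication genes lower at week 8, replication genes not called, the mitosis list and all promoters. E2F matches were in 59.3% of the first set and 3.33% of all promoters, and the CHR bar is at 0 for the first set and 70.8% for the mitosis list.

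The 250 bases before the start are given for 5 members that fell and hold an E2F form there, namely MCM6, GINS2, PCNA, RFC3 and POLA1. They are also given for CDT1 and TYMS, which hold an E2F form and were not called at week 8, and for RFC1, which holds none and was not called. Of members not shown, PRIM1, RRM2, ORC1, MCM10 and TK1 fell and hold no form in their windows. Each is written in the direction of the gene, with E2F forms on either strand in capitals. MCM6 (chr2:135876444-135876693, minus strand) has 2 stretches in which forms on both strands overlap, beginning 152 and 90 bases before the start. The single forms begin 31 bases before the start in GINS2 (chr16:85688955-85689204, minus strand), 59 in PCNA (chr20:5126623-5126872, minus strand) and 55 in RFC3 (chr13:33817899-33818148, plus strand). In POLA1 (chrX:24693668-24693917, plus strand) the form begins 137 bases before the start, in CDT1 (chr16:88803539-88803788, plus strand) 35 and in TYMS (chr18:657403-657652, plus strand) 39. The RFC1 stretch is chr4:39366363-39366612 on the minus strand.
MCM6: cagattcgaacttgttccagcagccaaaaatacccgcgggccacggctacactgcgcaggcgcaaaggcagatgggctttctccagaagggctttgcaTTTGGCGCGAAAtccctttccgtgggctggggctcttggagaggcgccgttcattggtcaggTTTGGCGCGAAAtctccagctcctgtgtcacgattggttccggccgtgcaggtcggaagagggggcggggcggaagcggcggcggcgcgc
GINS2: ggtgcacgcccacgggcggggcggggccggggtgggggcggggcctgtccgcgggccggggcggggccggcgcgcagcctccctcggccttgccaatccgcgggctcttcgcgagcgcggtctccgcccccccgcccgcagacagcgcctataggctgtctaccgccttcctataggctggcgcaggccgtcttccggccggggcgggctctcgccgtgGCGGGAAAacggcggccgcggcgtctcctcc
PCNA: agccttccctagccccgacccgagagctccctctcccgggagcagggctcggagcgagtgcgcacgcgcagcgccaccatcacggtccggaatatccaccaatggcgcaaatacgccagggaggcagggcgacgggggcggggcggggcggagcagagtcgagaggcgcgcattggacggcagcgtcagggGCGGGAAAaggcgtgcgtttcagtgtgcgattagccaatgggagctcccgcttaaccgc
RFC3: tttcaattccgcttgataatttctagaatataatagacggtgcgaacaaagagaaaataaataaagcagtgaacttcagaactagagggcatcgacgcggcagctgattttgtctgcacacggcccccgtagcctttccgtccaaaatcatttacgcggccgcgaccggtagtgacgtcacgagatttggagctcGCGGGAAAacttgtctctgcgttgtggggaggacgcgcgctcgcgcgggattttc
POLA1: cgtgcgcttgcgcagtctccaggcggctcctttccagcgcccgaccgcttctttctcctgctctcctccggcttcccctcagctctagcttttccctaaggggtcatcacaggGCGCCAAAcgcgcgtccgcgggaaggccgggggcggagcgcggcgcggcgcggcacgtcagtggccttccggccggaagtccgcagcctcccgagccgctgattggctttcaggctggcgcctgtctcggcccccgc
CDT1: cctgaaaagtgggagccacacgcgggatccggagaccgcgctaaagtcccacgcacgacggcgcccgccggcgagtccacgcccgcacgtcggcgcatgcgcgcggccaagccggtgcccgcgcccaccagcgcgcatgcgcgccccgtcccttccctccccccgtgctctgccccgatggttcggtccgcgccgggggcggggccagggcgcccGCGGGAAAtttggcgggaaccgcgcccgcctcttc
TYMS: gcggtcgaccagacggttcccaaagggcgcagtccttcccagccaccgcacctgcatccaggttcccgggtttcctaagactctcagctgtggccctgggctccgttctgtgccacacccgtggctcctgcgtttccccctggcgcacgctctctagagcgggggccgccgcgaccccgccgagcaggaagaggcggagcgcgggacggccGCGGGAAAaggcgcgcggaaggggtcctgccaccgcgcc
RFC1: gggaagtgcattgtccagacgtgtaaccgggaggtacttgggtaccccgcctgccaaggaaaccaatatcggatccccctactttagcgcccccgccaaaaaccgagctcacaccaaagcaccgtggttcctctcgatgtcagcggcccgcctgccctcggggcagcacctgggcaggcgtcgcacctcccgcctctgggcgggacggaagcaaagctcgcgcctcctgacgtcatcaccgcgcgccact

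Origin recognition genes divided into members that fell and members that did not. ORC1, the subunit known to be made anew in each cycle, had normalized log2 intensities of 8.34, 7.46, 7.09, 6.31 and 5.54 at weeks 0, 2, 4, 6 and 8. ORC2 read 9.69, 8.79, 8.14, 7.86 and 7.70 at the same weeks. Both declined at every sampling, and at week 8 they were 6.95-fold and 3.97-fold below week 0. ORC3 fell 2.35-fold by week 8, with no further decline between weeks 6 and 8 (0.08 on the log2 scale). ORC4 (-0.28) and ORC5 (-0.67) were not called at week 8. The probes of ORC6 differed. Its brightest probe read 14.26 at week 8 against 13.96 at week 0 and was not called, while its other probe read 6.80 against 8.78 and was 3.94-fold lower. Deposited signals of the brightest probe were 22100.1, 22314.9 and 22209.3 at weeks 4, 6 and 8. Whether these lie near the top of the array's range was not tested.

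The 2 loading factors that act with the complex moved apart. CDC6, an ATPase needed to load the helicase, read 10.20, 9.47, 9.85, 8.72 and 8.35 at weeks 0, 2, 4, 6 and 8 and was 3.59-fold lower at week 8 than at week 0. CDT1, which brings the MCM ring to the origin, read 10.04, 10.12, 10.68, 10.79 and 10.69 on its only probe. It was highest at week 6, and its difference of 0.65 at week 8 was not called. GMNN, which encodes geminin, the inhibitor of CDT1, read 8.31, 7.94, 7.74, 8.00 and 7.87 and was not called at any week.

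All 6 genes of the MCM2 to MCM7 helicase ring fell by week 8, from 3.57-fold (MCM7) to 11.9-fold (MCM4). MCM2 read 10.33, 9.74, 10.15, 8.46 and 7.91 at weeks 0, 2, 4, 6 and 8. MCM4 read 10.58, 9.58, 9.51, 8.17 and 7.01, and MCM5 read 10.05, 8.64, 8.64, 7.45 and 6.58. These courses share a level stretch or small recovery between weeks 2 and 4 and a drop after week 4, which for MCM2 was -1.69 from week 4 to week 6. MCM3 (-2.35) and MCM6 (-2.02) also fell by week 8, and both MCM3 and MCM6 stayed bright, at 10.96 and 10.84 at week 8. MCM3, MCM4 and MCM5 were already called lower at week 2, MCM3 by -1.03, MCM5 by -1.41 and MCM4 at the 2-fold limit. Levels of different probes are not comparable as amounts of RNA, so no ratio between subunits is given.

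**Figure D3:**
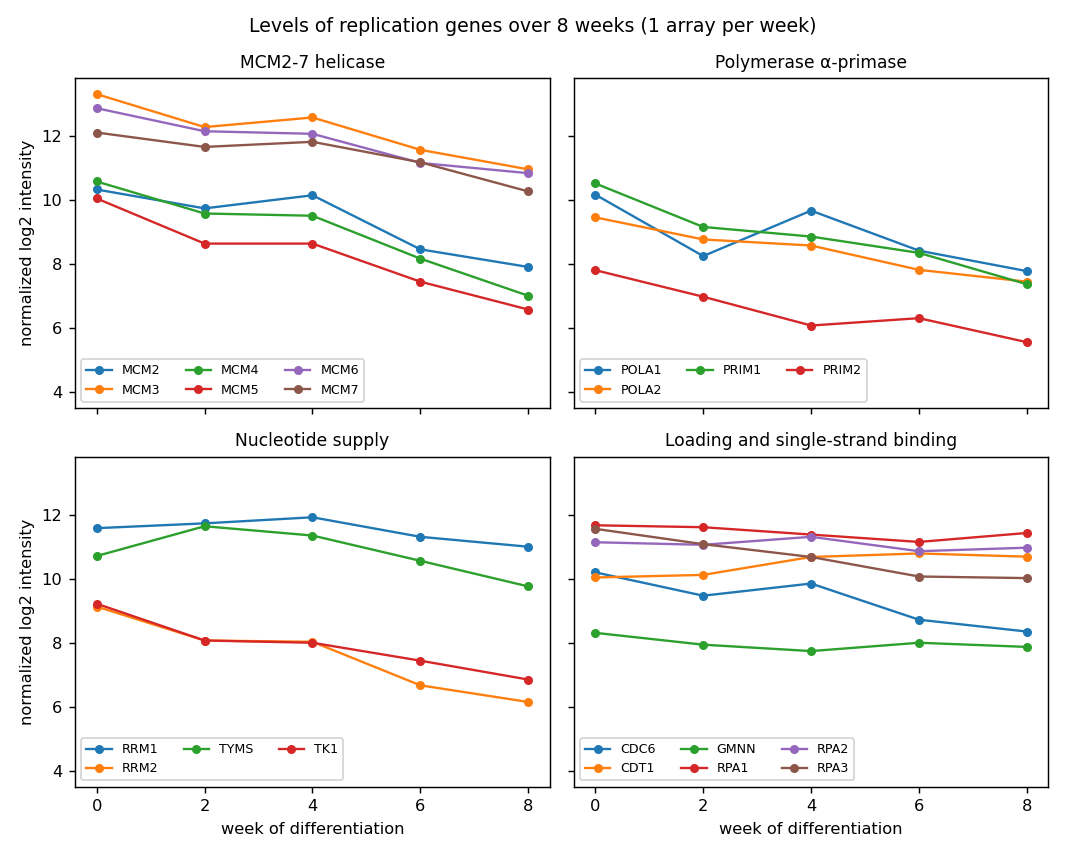
Normalized log2 intensity (vertical axis) of the brightest probe of selected replication genes at weeks 0, 2, 4, 6 and 8 (horizontal axis), 1 array per point. MCM2 to MCM7 all ended lowest at week 8, POLA1 dipped to 8.25 at week 2 and stood at 9.67 at week 4, TYMS peaked at 11.64 at week 2, and RPA1, RPA2, GMNN and CDT1 were not called at week 8.

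The relatives of the ring differed. MCM10, which helps to start the assembled helicase, read 9.67, 9.09, 9.57, 7.89 and 6.90 at weeks 0, 2, 4, 6 and 8 and was 6.81-fold lower at week 8. MCM8, a helicase gene known for a role in homologous recombination, was not called at week 8 on its brightest probe (0.61), which was the single member called higher at week 4 (1.06, among 14% of genes called higher). That call was lost with 75th percentile scaling and on the mean of the gene's probes. Another MCM8 probe differed by -0.58 at week 4 and read 5.99 at week 8 against 8.04 at week 0, 4.13-fold lower. Genes of the GINS ring fell, whereas CDC45 did not pass the call. GINS1 read 11.27, 10.23, 10.76, 9.58 and 8.68 and fell 6.01-fold, and GINS2 fell 5.86-fold, to 6.51 at week 8 against 9.06 at week 0. GINS3 was below background at weeks 6 and 8 and fell at least 3.65-fold. CDC45, the remaining part of the active helicase, read 9.54, 9.43, 9.14, 9.01 and 8.98 and differed by -0.56 at week 8.

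PCNA and 3 of the 5 clamp loader genes fell. PCNA, the sliding clamp, read 12.12, 11.49, 11.75, 10.82 and 10.31 at weeks 0, 2, 4, 6 and 8 and was 3.5-fold lower at week 8, while its 2 other probes were below background on all arrays. RFC2, RFC3 and RFC4, small loader subunits, fell 4.64-fold, 5.54-fold and 3.91-fold by week 8. RFC5 (-0.95) lay just short of 2-fold, and RFC1, the large subunit, differed by -0.56. RFC1 was level at week 4 (0.03).

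All 4 genes of polymerase α-primase fell by week 8, and POLA1 alone of them rose between weeks 2 and 4. PRIM1, the catalytic primase subunit, read 10.52, 9.16, 8.86, 8.35 and 7.37 at weeks 0, 2, 4, 6 and 8 and was 8.84-fold lower at week 8. POLA1, the catalytic polymerase subunit, read 10.17, 8.25, 9.67, 8.42 and 7.78. It fell by 1.92 on the log2 scale by week 2, rose by 1.42 between weeks 2 and 4 and fell again by 1.25 between weeks 4 and 6. It was the only member called in the step from week 2 to week 4, where 7.27% of all genes were called higher. Its dimmer probe moved the same way, by -0.85, 0.62 and -0.67 over these steps, but was above background only at weeks 0 and 4, so these are bounds. POLA2 and PRIM2, the accessory subunits, fell 4.04-fold and 4.75-fold by week 8.

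Of the polymerase δ and ε genes, POLE2 fell most. This subunit of polymerase ε read 9.98, 9.05, 8.40, 8.02 and 6.74 at weeks 0, 2, 4, 6 and 8 and was 9.41-fold lower at week 8, with a difference of -1.27 in the last step that was not called without background correction or in the authors' processed values. POLE, its catalytic subunit, fell less, by 1.17 on the log2 scale. POLD1, the catalytic subunit of polymerase δ, fell 3.66-fold and POLD3 fell 2.70-fold, whereas POLD2 (-0.82) was not called on its brightest probe and fell at least 2.63-fold on another. FEN1 and LIG1, the nuclease and ligase that finish Okazaki fragments, fell 3.39-fold and 3.06-fold by week 8. In the single-strand binding protein RPA, RPA3 read 10.02 at week 8 against 11.56 at week 0 and fell, and RPA1 (-0.24) and RPA2 (-0.18) were not called. The other 2 probes of RPA1 differed by -0.97 and -0.94.

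Among enzymes of deoxynucleotide supply, RRM2 and TK1 fell and RRM1 and TYMS were not called at week 8. RRM2, the subunit of ribonucleotide reductase known to be limited to S phase, read 9.13, 8.07, 8.03, 6.67 and 6.15 at weeks 0, 2, 4, 6 and 8. Its partner RRM1, a longer-lived subunit, read 11.58, 11.73, 11.92, 11.31 and 11.00 and was not called. Thus RRM2 fell 7.87-fold by week 8 and RRM1 differed by -0.58. TYMS, thymidylate synthase, read 10.71, 11.64, 11.35, 10.56 and 9.76, with its highest level at week 2 (0.93 above week 0, not called) and a difference of -0.94 at week 8. TK1, the thymidine kinase of S phase, read 9.22, 8.07, 8.00, 7.44 and 6.85 and was 5.16-fold lower at week 8. RRM2B, the reductase subunit induced by p53, was not called at week 8 (-0.19).

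Probes of the same gene mostly gave the same call. More than 1 probe was above background at week 0 or week 8 for 16 members. Every such probe was called lower for 10 of them, and no probe was called for 3 (ORC5, RFC1 and RPA1). The calls differed between probes for MCM8, ORC6 and POLD2. Counted by probe, 45 of 63 measured probes were lower at week 8 and none was higher. Over all measured genes 15.4% were lower and 16.8% higher, and no such share was taken over all probes.

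**Figure D4:**
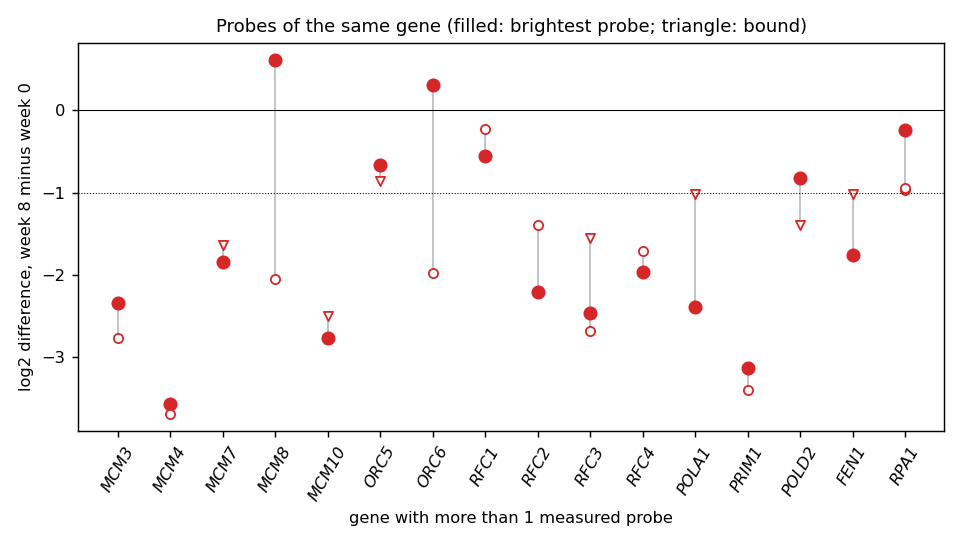
Log2 difference of week 8 minus week 0 (vertical axis) for every measured probe of the 16 replication genes with more than 1 (horizontal axis). Filled symbols are the brightest probe, open symbols the others and triangles are bounds. The dotted line is the 2-fold limit, and the MCM8 probes (0.61 and -2.05) and the ORC6 probes (0.31 and -1.98) lie farthest apart.

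Most of the decline fell between weeks 0 and 2 and between weeks 4 and 6. From week 0 to week 2 the median member differed by -0.58 and 8 of 45 were lower (17.8%, against 9.29% of all genes), a count of 4 without background correction and 13 with arrays scaled to a common 75th percentile. None was higher (10.7%). From week 2 to week 4 the median was -0.07 and none of 45 was lower, against 5.42% of all genes, and 16 members that stood below week 0 at week 2 were higher at week 4 than at week 2. From week 4 to week 6 the median was -0.71 and 12 of 45 were lower (26.7%, against 4.26%) and none was higher (6.23%). The 12 were MCM2, MCM3, MCM4, MCM5, MCM10, CDC6, GINS1, GINS2, RFC3, POLA1, FEN1 and RRM2, and 5 members were lower in this step without background correction. From week 6 to week 8 the median was -0.32 and 2 of 44, MCM4 and POLE2, were lower (1.08% of all genes), and none was higher (1.93%). Neither was called in this step without background correction or in the authors' processed values. Of the 31 members lower at week 8, 19 had their steepest drop between weeks 4 and 6. Steepest drops were not counted over all genes, so this count has no background share. For the 30 of these above background on all arrays, the median share of the week 8 difference already reached was 34.4% at week 2, 34.7% at week 4 and 76.3% at week 6. Against week 0, 11 of 45 members were lower at week 4 (4 without background correction and 19 with the 75th percentile scaling) and 29 at week 6, where 11.5% and 14.1% of all genes were lower. None was higher at week 6 (15.8%). Counting drops of any size, 19 members stood lower at each week than at the one before, among them ORC1, ORC2, PRIM1 and POLE2. The count includes GINS3, which was below background at weeks 6 and 8, so that its last step was not measured. It also includes members nearly level between weeks 2 and 4, such as MCM4 (-0.07) and MCM5 (8.64 at both). The count alone therefore does not show a steady course.

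Mitosis genes, set beside them, had their most negative medians at other steps. The 29 listed genes, which act in the spindle, its checkpoint and cytokinesis, had medians of -0.12, -0.73, -0.49 and -0.82 over the same 4 steps. Of the measured ones 1 of 27, 9 of 26, 2 of 26 and 10 of 26 were lower in these steps, where replication genes had 8, 0, 12 and 2. Over all genes 9.29%, 5.42%, 4.26% and 1.08% were lower. The mitosis gene lower in the first step was BUB1B, and from week 4 to week 6 CENPE and BIRC5 were lower while CDC20 was higher. A second CENPE probe differed by -0.04 in that step and by -1.17 from week 2 to week 4. Over the alternative settings the mitosis count ran from 0 to 2 in the first step, 3 to 9 in the second, 0 to 2 in the third and 1 to 10 in the last. By week 8, 24 of 28 mitosis genes were lower than at week 0 (median -2.35) and none was higher, against 15.4% and 16.8% of all genes. The lowest were BUB1 (-3.15), AURKB (-2.87), TTK (-2.79) and BIRC5 (-2.78), and MKI67, the proliferation marker, fell at least 2.92-fold. With 1 array per week the difference between the 2 lists was not tested.

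**Figure D5:**
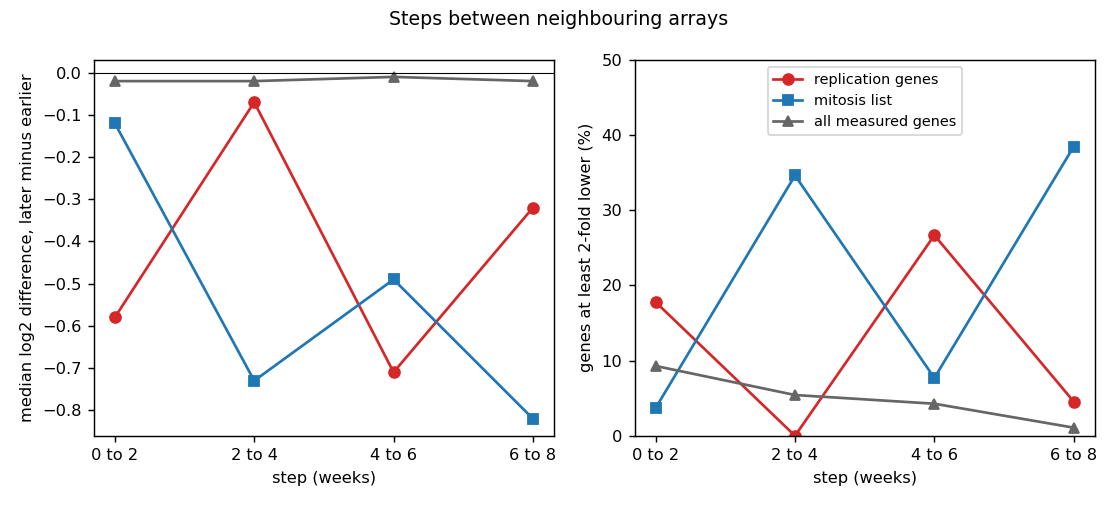
Median log2 difference, later minus earlier array (left), and percent of measured genes at least 2-fold lower (right) for each 2-week step (horizontal axis), in the replication genes, the mitosis list and all measured genes. Replication genes had medians of -0.58, -0.07, -0.71 and -0.32 and mitosis genes -0.12, -0.73, -0.49 and -0.82.

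Other genes of the replication pathway, taken from 6 lists, were also lower at week 8 in part. Of 77 listed, 62 were measured, 28 were lower, 4 higher and 30 not called, with a median of -0.79. Over all measured genes 15.4% were lower and 16.8% higher, and the median was -0.05. In origin firing 6 of 9 fell, among them the cyclin genes CCNA2 (-2.82) and CCNE1 (-2.24), DONSON (-1.89) and TICRR (at most -1.74). A second DONSON probe, above background on all 5 arrays, differed by 0.26 and was not called. Of the genes for chromatin assembly at the fork 6 of 7 fell, with the histone chaperone genes NASP (-2.57), ASF1B (-2.37) and CHAF1A (-2.07) and the DNA methylation cofactor gene UHRF1 (-1.69) the lowest.

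Fork progression and protection had 10 of 19 lower, with TIPIN (-2.73), WDHD1 (-2.58), DNA2 (-2.14) and TOP2A (-2.00) lowest, and CLSPN, the checkpoint mediator claspin, was higher (1.18). The second DNA2 probe differed by 0.17 and was not called, and the mean of its probes (-0.43) was not called either. The dimmer WDHD1 probes (-0.29 and -0.90) were not called. Licensing and origin regulators had FBXO5 (-2.10, but 2.04 on its other probe and 0.41 on their mean), a regulator of the anaphase-promoting complex, and MCMBP (at most -1.33), an MCM-binding protein, lower. DTL, part of the ubiquitin ligase that removes CDT1, was higher (1.33), and 6 of 9 were not called. With 22.2% lower, against 15.4% of all genes, this list lay near the background. In nucleotide supply DUT (-1.54), DCTPP1 (-1.21, with -0.80 and no call on its other probe) and CTPS1 (at most -1.01) fell, and 3 of 6 were not called.

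Of 12 measured E2F and pocket protein genes, E2F2 fell (-1.15), the pocket protein genes RBL2 (1.35) and RB1 (1.01) rose and 9 were not called, against 15.4% of all genes lower and 16.8% higher, so the list's counts lie near the background. E2F1 read 8.84, 8.24, 9.72, 8.73 and 8.73 at weeks 0, 2, 4, 6 and 8 and differed by -0.12 at week 8. Without background correction RB1 (0.55) and DTL (0.56) missed 2-fold, and CLSPN (0.74) did so once arrays shared a 75th percentile.

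The CDKN1 proteins inhibit CDK2, which acts in origin firing, and the INK4 proteins of the CDKN2 genes inhibit CDK4 and CDK6, which act in G1. Of these CDK inhibitor genes, 3 of 5 measured rose by week 8, against 16.8% of all genes, and 1 fell, against 15.4%. CDKN1A, encoding p21, read 7.55, 11.08, 10.60, 11.80 and 13.10 at weeks 0, 2, 4, 6 and 8. Its difference of 5.55 at week 8 was 1.16 on its other probe. CDKN2A was not called (0.19). CDKN2B (at least 3.28, but 0.34 on the mean of its probes) and CDKN1B (1.34, and 3.12 on its other probe) were higher as well. CDKN2D was lower on its brightest probe (-2.03) and higher on the other (1.70).

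The arrays had 16993 (week 0) to 18358 (week 8) probes above background, and the median signal of those was 2.62 to 2.90 times that of the probes below it. The cells changed in kind over the same weeks. All 7 pluripotency markers were above background at week 0 and 4 at week 8, when POU5F1, NANOG and LIN28A were below, and their summed signal was 40802, 9843, 7603, 3434 and 3820 at weeks 0, 2, 4, 6 and 8. Summed signals, here and below, are of deposited values, neither corrected for background nor normalized. They include probes below background, whose median signal was 123.7 to 132.5 per array. Of 9 epithelial markers 2 were above background at week 0 and 7 at week 8, with summed signals of 1314, 1235, 4138, 16785 and 32532. KRT3 and KRT12, keratins that define differentiated corneal epithelium, were below background on all 5 arrays. Markers of stroma (3 of 6 above background at week 0 and 6 of 6 at week 8) had summed signals of 3368, 25197, 21356, 35746 and 59100. Markers of neurons (4 of 6 and 6 of 6) had 3261, 16943, 19080, 6307 and 9528. Pigment cell markers (1 of 4 and 4 of 4, as DCT had no named probe) had 1936, 3028, 5286, 20337 and 34664, and lens markers (0 of 4 and 4 of 4) had 603, 628, 927, 2992 and 9407. The part of these shifts in cell makeup in the decline of replication genes was not tested.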

How the data were processed

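RNA from 5 samples, 1 per week, was hybridised as biotin-labelled cRNA to 1 Illumina bead array each, per the labels' protocols. Per the file headers, the deposited unnormalized table gives an average intensity per probe, linear in scale, with a lowest value of 90.0 to 98.7 on each array, so no background had been subtracted. Beside it stands the deposited detection score, a fraction from 0 to 1, taken to be 1 less the detection p-value, since bright probes score near 1. The authors' processed intensity, in the other deposited table, is also linear, whose columns share their lowest and highest values as after quantile normalization. For neither table are software and method given in the sources used here.

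With neqc, deposited signals were corrected for background, offset by 16, quantile normalized and taken to log2, using limma 3.58.1 in R 4.3.3. The remaining steps used Python 3.11.15, pandas 2.3.3 and numpy 2.4.6. Of 47317 probes, 17199 were unnamed, 8 named several genes and 30110 named 1 in the array's annotation. Symbols were updated through Entrez identifiers for 30071. A gene was represented by its probe of highest mean. A value below background was raised to the lowest value above background on its array, so a difference against it is a bound, written "at least" for a fold and "at most" for a negative log2 difference. The steps were tested on simulated arrays.

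All members were named, with up to 4 called genes of each other list by size of difference, genes called against their list, and CDKN1A, RRM2B, E2F1 and MKI67. Further genes that complete a count, and marker genes, were named after their values were seen. The members, lists and alternatives were chosen with earlier results of these data known. Each count was repeated with uncorrected background, with 75th percentile scaling, with an offset of 50 and at a detection limit of 0.05. It was also repeated over genes detected at every week, on gene means over probes and on the authors' processed values. The repeat by probe covered only the members lower or higher in the last sampled week than in undifferentiated cells. The number of arrays limits the precision. Promoter sequences are those of RefSeq on GRCh38.p14.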

Additional observations from a re-analysis of the deposited data

How the results depend on the processing

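No paired analysis was possible because each week has 1 array and the labels give no replicate numbers. The count of members lower at week 8 ran from 27 to 35 over the alternatives that count genes, against 31, and the direction of the median held in each (-1.28 to -2.17). Scaling to a common 75th percentile moved the median of all genes at week 8 to -0.21, and the members' median relative to it was -1.96, against -1.80 in the main setting. It also lowered the share of higher genes among all calls at week 8 to 41.9%, against 52.1%. Earlier counts depended more on the scale. Members lower at week 2 numbered 4 without background correction, 5 in the authors' values and 13 with the 75th percentile, and at week 4 they numbered 4, 5 and 19. In the step from week 4 to week 6 they numbered 5 without background correction and 6 in the authors' values. In the last step they were 0, 0 and, with an offset of 50, 1. The count of 0 from week 2 to week 4 held in every alternative. Other pathway genes higher at week 8 numbered 2 without background correction, with the 75th percentile, with an offset of 50 and in the authors' values.

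On the mean of their probes PCNA (-0.86) and POLD3 (-0.82) lost their call, probes below background on every array being averaged in, and FBXO5 turned to 0.41. In the authors' values RFC2 (-0.90), PRIM2 (-0.92), POLD3 (-0.95) and POLE (-0.68) were not called. POLD2, RFC5, RRM1 and TYMS passed 2-fold under the 75th percentile. Without background correction GINS3 (-0.76), POLD3 (-0.97), POLE (-0.71), DONSON (-0.92), TICRR (-0.69), MCMBP (-0.48), CTPS1 (-0.34) and MKI67 (-0.59) were not called, and DNA2 was -0.43 on the mean of its probes. The cause of these shifts was not tested. Differences against arrays where a probe was below background are bounds, which is the limit that signal over background sets here.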
